A study of Mus musculus with 34 samples.

Results

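Jun peaks of thioglycollate-elicited macrophages (TGEMs) were compared between C57BL/6 and BALB/cJ mice, once without and once with an inflammatory stimulus. TGEMs are the macrophages that enter the peritoneum after an injection of thioglycollate, and ChIP-seq maps the DNA that an antibody pulls down with a protein, as peaks of sequenced fragments. The members are all peaks of the 4 lists obtained with the antibody to Jun in wild-type TGEMs of both strains, 55302 of the 596383 peaks in the 30 lists of the series. They were 15548 peaks for C57BL/6 and 10957 for BALB/cJ in vehicle (Veh, PBS), and 17480 and 11317 after 1 h of KLA. KLA (Kdo2 lipid A, 100 ng/mL) activates TLR4. All mice were male and 8 weeks old. The sample labels give the genotypes as C57Bl/6EiJ and Balb/cJ, the methods of the study call the first C57Bl/6J, and C57BL/6 stands for both here. Both strains and both treatments were crosslinked with DSG and then with formaldehyde. The series also holds lists for ATF3, JunD, Fos, FosL2 and JunB, for PU.1, CEBPα and PPARγ of C57BL/6, and for ATF3, Jun and JunD in Veh TGEMs of PPARγ knockout mice (PPARgKO) that the titles place on a C57Bl6 background, whose deleting allele is not given in the sources used here. Of the 30 lists 29 held peaks. No expression values were analysed here, so the identity of the cells was not checked against markers.

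Jun is a subunit of AP-1, a transcription factor that binds DNA as a dimer of basic leucine zipper proteins. Jun proteins pair with each other, with Fos proteins or with members of the ATF family, and the dimers recognise the TRE (TGACTCA) or the CRE (TGACGTCA). In macrophages, AP-1 binds at enhancers together with the lineage factors PU.1 and CEBP, and TLR4 signalling activates it within the hour. Inbred strains differ at many positions of the genome, so binding in a pair of strains can be compared locus by locus.

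Each condition had 1 list, into which the authors had already combined the replicates, so no test between replicates could be run and no p-value is given. Shares of loci are given with 95% Wilson intervals, differences of shares with 95% Newcombe intervals and odds ratios with 95% Woolf intervals, all of which cover counting error over loci only. The deposited counts are not scaled to library size. A peak was therefore described by its count in its own list and by its percentile rank there, where 100 is the strongest. Added over its peaks, a Jun list held between 387471 and 622264 counts, the median peak had 25 to 36 and the highest 127 to 149. Peaks of both strains that overlapped by at least 1 bp formed a shared locus. A locus without a peak of the other strain is called C57-only or BALB-only, which says that no peak was listed, not that Jun was absent.

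Sequences are shown for the loci that set the strains apart most clearly, which held Jun in 1 strain under both treatments and no peak of any AP-1 monomer in the other strain, with a pair of strong shared loci beside them. They are the central 101 bases of the locus on the plus strand of mm10 (GRCm38.p6), the C57BL/6J reference. The BALB/cJ allele was not read. Capitals mark each exact TRE (TGACTCA, or TGAGTCA on the other strand) or, in a sequence that has none, each stretch 1 letter away from a TRE. The first 4 were C57-only and lay nearest to Mid1 (chrX:169981085-169981185), Slamf9 (chr1:172470112-172470212), Nat9 (chr11:115185087-115185187) and Rab7b (chr1:131703589-131703689). The next 3 were BALB-only and lay nearest to Cacna1a (chr8:84420703-84420803), Col6a6 (chr9:105764856-105764956) and Fam49b (chr15:64102015-64102115). The last 2 were shared and lay nearest to Sfn (chr4:133614540-133614640) and Tob2 (chr15:81845799-81845899).
Mid1: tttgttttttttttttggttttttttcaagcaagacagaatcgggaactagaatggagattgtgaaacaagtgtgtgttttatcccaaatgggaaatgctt
Slamf9: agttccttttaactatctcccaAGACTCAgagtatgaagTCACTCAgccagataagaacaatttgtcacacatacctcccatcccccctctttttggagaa
Nat9: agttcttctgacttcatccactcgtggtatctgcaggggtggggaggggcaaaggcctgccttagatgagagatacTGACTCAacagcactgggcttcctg
Rab7b: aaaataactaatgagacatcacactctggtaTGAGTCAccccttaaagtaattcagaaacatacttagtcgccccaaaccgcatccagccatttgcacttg
Cacna1a: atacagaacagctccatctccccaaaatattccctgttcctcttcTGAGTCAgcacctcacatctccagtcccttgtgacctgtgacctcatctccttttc
Col6a6: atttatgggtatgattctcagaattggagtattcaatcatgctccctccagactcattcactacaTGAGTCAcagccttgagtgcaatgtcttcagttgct
Fam49b: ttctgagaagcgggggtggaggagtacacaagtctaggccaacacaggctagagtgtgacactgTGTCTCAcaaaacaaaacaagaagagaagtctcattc
Sfn: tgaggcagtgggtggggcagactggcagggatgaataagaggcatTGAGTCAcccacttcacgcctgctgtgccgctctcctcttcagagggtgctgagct
Tob2: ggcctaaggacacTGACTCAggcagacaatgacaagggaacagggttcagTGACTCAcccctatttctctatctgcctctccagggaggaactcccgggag
An exact TRE stood in the window shown for 2 of the 4 C57-only loci, for 2 of the 3 BALB-only loci and for both shared loci, with 2 copies at Tob2. The loci shown are a picked few, so these counts do not stand for their sets. The highest-ranked shared locus of Veh, near Iqgap1 and not shown, had no exact TRE. Over the whole sets, a TRE stood in the central 200 bp at 49 of 97 C57-only and 14 of 44 BALB-only loci. For shared loci of Veh the share was 42.6%. The window at Mid1 had neither an exact TRE nor a stretch 1 letter away from it.

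Fewer than 50% of the Jun loci were shared by the strains under either treatment. In Veh, 7549 of 18941 loci were shared (39.9%, 39.2 to 40.6), 7989 were C57-only (42.2%) and 3403 were BALB-only (18%). After KLA, 8104 of 20667 were shared (39.2%, 38.5 to 39.9), 9356 were C57-only (45.3%) and 3207 were BALB-only (15.5%). These shares of all loci, 42.2% and 18% in Veh and 45.3% and 15.5% after KLA, are the background against which the counts of any group of loci are read below. The C57BL/6 lists were also the longer ones, so the lists were compared again with the C57BL/6 list cut by count to the length of the BALB/cJ list, which by construction leaves about as many C57-only as BALB-only loci. Their shares were then 27.6% each in Veh, with 44.8% shared (44.1 to 45.6). After KLA they were 29% each, with 42.0% shared (41.2 to 42.7).

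How often a peak had a partner in the other strain depended on its rank. Of the weakest 10% of the C57BL/6 Veh peaks 9.96% (8.63 to 11.5) overlapped a BALB/cJ peak, and of the strongest 10% 94.4% (93.2 to 95.4). For BALB/cJ Veh peaks the shares were 31.6% and 97.6%. After KLA they were 16.1% and 86.4% for C57BL/6 and 23.5% and 98.1% for BALB/cJ. The share rose at each of 10 such steps in all 4 lists, with peaks of equal count kept in 1 step. The median count of strain-only and shared peaks was 20 and 35 for C57BL/6 in Veh, 23 and 35 for BALB/cJ in Veh, 26 and 39 for C57BL/6 after KLA, and 24 and 43 for BALB/cJ after KLA. Among shared loci, the counts of both strains ranked alike, with a Spearman correlation of 0.764 over 7549 loci in Veh and 0.797 over 8104 after KLA. This is a description across loci of the same pair of lists, and loci are not independent replicates.

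**Figure D1:**
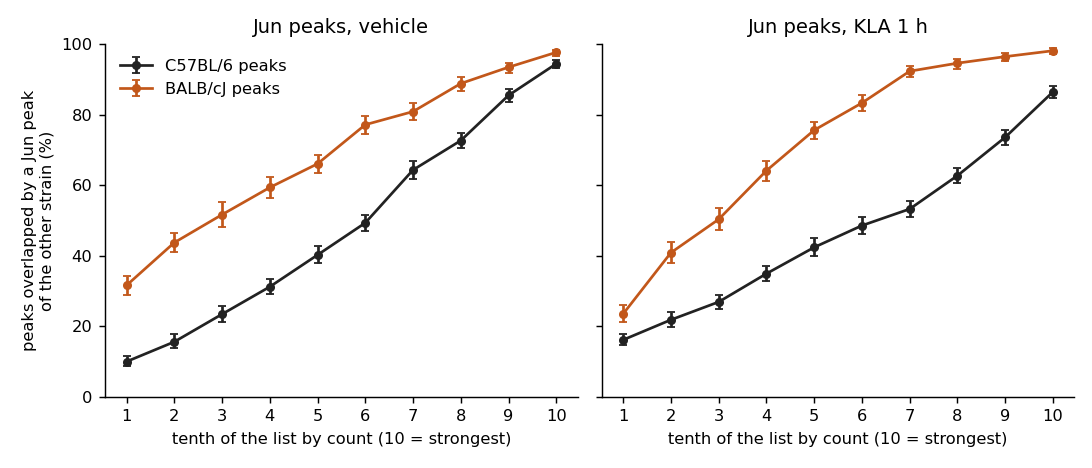
Share of Jun peaks that overlapped a Jun peak of the other strain (vertical axis, %) in each of 10 steps of a list by count (horizontal axis, 10 is the strongest), for Veh (left) and KLA (right). Points are shares of the C57BL/6 list (black) and the BALB/cJ list (orange) with 95% Wilson intervals, and the shares rise from 9.96% to 94.4% and from 31.6% to 97.6% in Veh, and from 16.1% to 86.4% and from 23.5% to 98.1% after KLA.

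Few of the strongest peaks lacked a partner, and C57BL/6 after KLA held most of those that did. Among the strongest 10% of each list, 88 of 1555 C57BL/6 Veh peaks (5.66%), 25 of 1096 BALB/cJ Veh peaks (2.28%), 242 of 1748 C57BL/6 KLA peaks (13.8%, 12.3 to 15.5) and 21 of 1132 BALB/cJ KLA peaks (1.86%) had no peak of the other strain under the same treatment. Many of these loci were bound in the other strain all the same, as other lists show. Of the 242 C57BL/6 KLA peaks, 161 (66.5%, 60.4 to 72.2) overlapped a BALB/cJ Jun peak in Veh, and 214 (88.4%, 83.8 to 91.9) overlapped BALB/cJ KLA peaks of ATF3, JunD, Fos and JunB alike. Of the 88 C57BL/6 Veh peaks, 47 overlapped a BALB/cJ Jun peak after KLA and 53 overlapped BALB/cJ Veh peaks of both ATF3 and JunD. A near miss of peak edges was found for few, since a Jun peak of the other strain lay within 1 kb of 12, 6, 25 and 5 of these 88, 25, 242 and 21 peaks. Of the 25 and 21 such BALB/cJ peaks, 17 and 11 overlapped a C57BL/6 Jun peak under the other treatment.

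The strongest strain-only peaks of each list show the same by name. A gene name marks the protein-coding gene with the nearest transcription start site (TSS) and does not say that Jun acts on it. The highest C57-only count after KLA was 145, at chr7:80830463-80830720, nearest to Iqgap1, which encodes a scaffold protein of the cytoskeleton. In Veh this locus was shared, with counts of 120 in C57BL/6 and 125 in BALB/cJ. After KLA the BALB/cJ lists held peaks there for ATF3, Fos, JunB and JunD with counts of 321, 389, 182 and 238, each above the 99th percentile of its list, and no Jun peak. The BALB-only counterpart was 148 after KLA at chr16:84627033-84627425, nearest to Mrpl39, a protein of the mitochondrial ribosome. There Jun had a count of 29 in both strains in Veh, and the C57BL/6 KLA lists held ATF3, Fos, JunB and JunD peaks with counts of 419, 258, 167 and 1087, each above the 99th percentile as well. So the strongest strain-only Jun peak of either KLA list lay where ATF3, Fos, JunB and JunD had some of their own strongest peaks in the other strain.

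Most other leading strain-only peaks were also in a Jun list of the other strain under the other treatment. Near Il1a, which encodes the cytokine interleukin 1α, the C57BL/6 KLA count was 121, and in Veh the strains had counts of 43 and 35. Near Popdc2 it was 104, against 64 and 56 in Veh. Near Lilr4b, a leukocyte immunoglobulin-like receptor gene, the BALB/cJ KLA count was 116, and in Veh C57BL/6 had 51 and BALB/cJ 58. In an intron of Dcakd, Jun had a peak in C57BL/6 in Veh and in BALB/cJ after KLA, and was in neither of the other 2 lists. In Veh, the intron of Pkd1l2 had a count of 93 in C57BL/6 and was shared after KLA (69 and 84), and the intron of Vmp1, which encodes a membrane protein of autophagy, had a count of 91 in BALB/cJ and was shared after KLA (89 and 111). The highest C57-only count in Veh, 111, lay in an exon of Lyz2, the gene of the macrophage lysozyme (chr10:117277807-117278196). It was in no other Jun list. BALB/cJ had an ATF3 peak there in Veh (46) and a JunB peak after KLA (64), and C57BL/6 had a JunD peak in Veh (48) and no ATF3 peak. Near Hal, which encodes histidine ammonia-lyase, BALB/cJ had counts of 82 in Veh and 47 after KLA, and C57BL/6 had no Jun peak. Leading shared loci were high in both strains. Sfn, which encodes 14-3-3σ, had counts of 107 and 124 in Veh and 144 and 143 after KLA, Tob2 had 101 and 128 in Veh and 91 and 101 after KLA, and Tax1bp1, which encodes an autophagy receptor, had 118 and 117 in Veh and 126 and 140 after KLA, each time for C57BL/6 and then BALB/cJ.

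The lists of one treatment were next used to examine the classes set by the other, since they are separate libraries. Most strain-only loci did not carry over. Of 7989 loci that were C57-only in Veh, 4337 (54.3%, 53.2 to 55.4) had no Jun peak in either strain after KLA, 1856 (23.2%) were C57-only again, 1299 (16.3%) were shared and 497 (6.22%) were BALB-only. Of 3403 loci that were BALB-only in Veh, 1641 (48.2%) had no peak, 372 (10.9%) were BALB-only again, 713 (20.95%) were shared and 677 (19.9%) were C57-only. A locus that was C57-only in Veh was thus C57-only after KLA 3.34 percentage points more often (1.69 to 4.95) than a locus that was BALB-only in Veh, and BALB-only 4.71 points less often (3.56 to 5.92). Shared loci carried over more often, with 3939 of 7549 (52.2%, 51.1 to 53.3) shared again.

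Among loci with a peak in exactly 1 strain under both treatments, the odds that the KLA peak was in C57BL/6 were 2.05 times (1.75 to 2.41) as high where the Veh peak was in C57BL/6 as where it was in BALB/cJ. Read from KLA to Veh, the ratio was 2.07 (1.76 to 2.43), which restates the same relation, since nearly the same loci enter both. At equal list lengths, where part of the same peaks is kept, the ratios were 2.28 and 2.29. Each interval lies above 1, the value of no relation, but they are readings of 1 relation and not separate results.

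**Figure D2:**
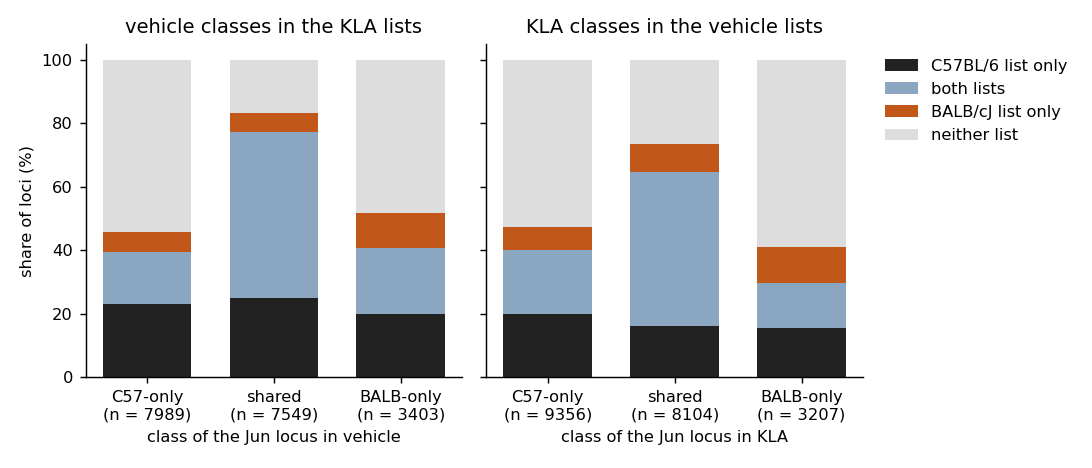
Stacked shares (%) of Jun loci of each class that were in the C57BL/6 list only (black), both lists (blue), the BALB/cJ list only (orange) or neither list (grey) under the other treatment, for Veh classes in the KLA lists (left) and KLA classes in the Veh lists (right). Of the C57-only Veh loci 23.2% were C57-only after KLA, of the BALB-only Veh loci 10.9% were BALB-only, and of the shared loci 52.2% were shared.

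Joined over the 4 lists, Jun had 27869 loci. Of these 12800 (45.9%) were in 1 list, 3954 (14.2%) were in all 4, 1843 (6.61%) were in both C57BL/6 lists and no BALB/cJ list, and 364 (1.31%) were in both BALB/cJ lists and no C57BL/6 list. The last 2 sets are called the C57BL/6 core and the BALB/cJ core. At equal list lengths the cores held 739 and 631 of 21747 loci. Loci that turned from one strain to the other were fewer at that length, with 461 C57-only in Veh and BALB-only after KLA and 437 the reverse. With the lists as deposited there were 484 and 665, more than the BALB/cJ core held. The core loci were weaker than the loci in all 4 lists. Their median percentile was 41.9 in Veh and 39.9 after KLA for C57BL/6 and 37.1 and 30.7 for BALB/cJ, while that of the loci in all 4 lists lay between 74.7 and 81.1.

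The 8 C57BL/6 core loci with the highest ranks had Jun counts between 52 and 81. They lay at Mid1, a ubiquitin ligase gene that spans the pseudoautosomal boundary of laboratory mice (81 in Veh and 76 after KLA), Slamf9, a receptor of the SLAM family (79 and 65), Igf1, a growth factor gene (73 and 63), Plcl2 (59 and 71), Ikbkb, the gene of an IκB kinase (58 and 67), Gpr176 (58 and 65), Ypel2 (55 and 64) and Gm10322 (52 and 61). The 8 BALB/cJ core loci had counts between 47 and 83. They lay at Cacna1a, a calcium channel gene (83 and 74), Slc1a2, a glutamate transporter gene (80 and 73), Rasal2, which encodes a Ras GTPase-activating protein (67 and 77), Vti1b, a SNARE gene (59 and 73), Gm20075 (57 and 61), Sirt1, a deacetylase gene (55 and 57), Sipa1l2 (48 and 76) and Arsb, which encodes arylsulfatase B (47 and 55). All 16 were above the 75th percentile of both their lists. Of the 16 only Mid1, Slamf9 and Cacna1a had no peak of any other AP-1 monomer in the other strain.

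Whether other monomers followed Jun was examined with the 6 lists per strain of ATF3 and JunD in Veh and of ATF3, JunD, Fos and JunB after KLA. At the 8 leading C57BL/6 loci the number of these lists with a peak in BALB/cJ ran from 0 (Mid1, Slamf9) to 6 (Ypel2), and at the 8 BALB/cJ loci the number in C57BL/6 ran from 0 (Cacna1a) to 5 (Gm20075, Sirt1). Near Ypel2 the BALB/cJ counts were 93 for ATF3 and 149 for JunD in Veh and 127, 156, 294 and 121 for ATF3, JunD, Fos and JunB after KLA, all above the 90th percentile, at a locus where BALB/cJ had no Jun peak in either treatment. Near Igf1, the BALB/cJ peaks of the other monomers were weak, with percentiles between 0.759 and 43.5, and in C57BL/6 they lay between 58.5 and 97.1. In the intron of Rasal2, the other monomers of BALB/cJ lay between the 88th and the 99th percentile and C57BL/6 had 1 peak, for Fos (count 30, percentile 11.5).

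**Figure D3:**
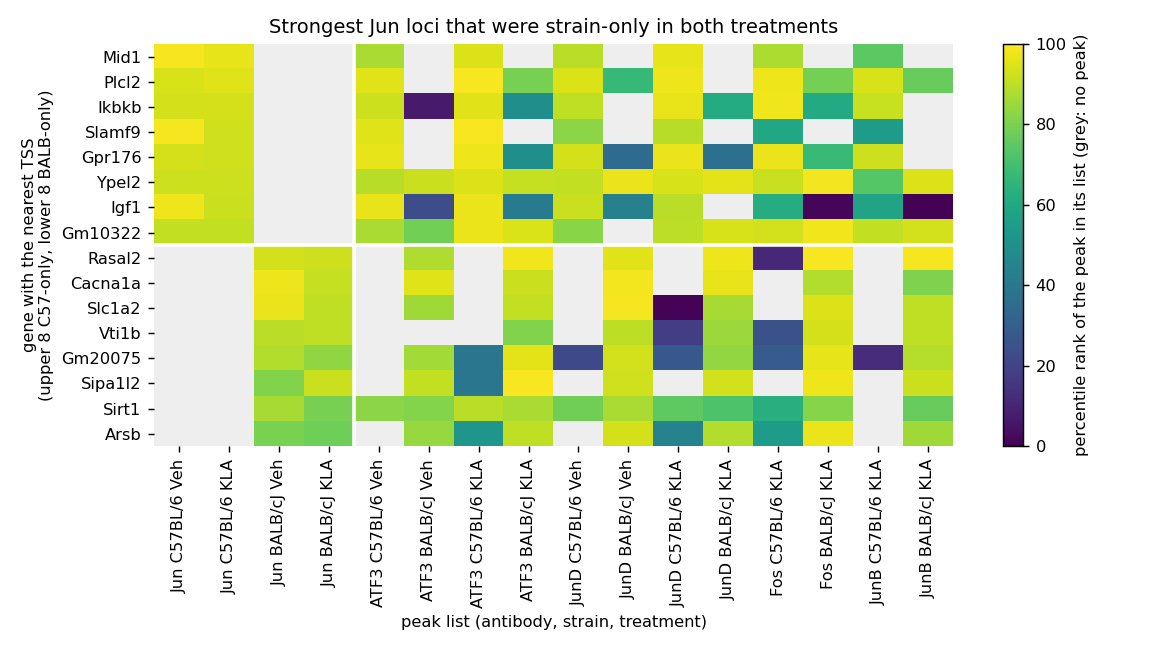
Percentile rank of the peak in each list (colour, 100 is the strongest, grey means no peak) at the 8 C57-only (upper) and 8 BALB-only (lower) loci with the highest Jun ranks in both treatments. Rows are loci by nearest gene and columns are lists by antibody, strain and treatment; the first 4 columns are Jun, whose pattern chose the loci, and the BALB/cJ columns of the other monomers are grey throughout for Mid1 and Slamf9 and filled throughout for Ypel2.

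Over all core loci, the other monomers were often bound in both strains. Where they were bound in 1 strain it was more often that of Jun, except for Fos and JunB at the C57BL/6 core with the lists as deposited, an exception that turned at equal list lengths. At the C57BL/6 core, ATF3 after KLA had a peak in both strains at 1513 of 1843 loci (82.1%), in C57BL/6 alone at 238 and in BALB/cJ alone at 49. In Veh, ATF3 was in both at 838 (45.5%), in C57BL/6 alone at 661 (35.9%) and in BALB/cJ alone at 99 (5.37%). JunD in Veh was in both at 979, in C57BL/6 alone at 401 and in BALB/cJ alone at 238, and after KLA at 1319, 411 and 55. With the lists as deposited, Fos and JunB leaned to BALB/cJ at this set. Fos was in C57BL/6 alone at 137 and in BALB/cJ alone at 330, and JunB at 288 and 448, beside BALB/cJ lists of these 2 monomers that were longer than those of C57BL/6 (40459 against 24365 peaks for Fos, and 21667 against 13375 for JunB). At equal list lengths Fos was in C57BL/6 alone at 113 of 739 core loci and in BALB/cJ alone at 43, and JunB at 186 and 114.

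At the BALB/cJ core, every monomer was more often in BALB/cJ alone than in C57BL/6 alone. ATF3 was in BALB/cJ alone at 106 of 364 loci and in C57BL/6 alone at 30 in Veh, and at 85 and 14 after KLA. JunD gave 170 and 17 in Veh and 115 and 20 after KLA, Fos 155 and 1, and JunB 205 and 18. At the 3954 loci in all 4 Jun lists, the other monomers were in both strains at 79.9% (JunB) to 99.2% (ATF3 after KLA).

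**Figure D4:**
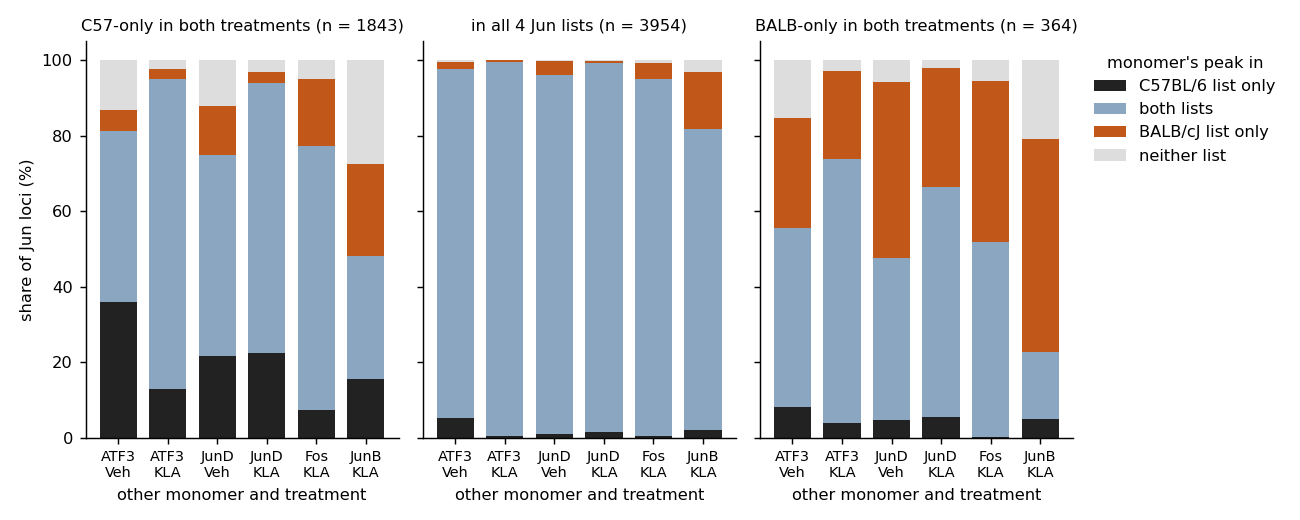
Stacked shares (%) of Jun loci at which another monomer had a peak in the C57BL/6 list only (black), both lists (blue), the BALB/cJ list only (orange) or neither (grey), for C57-only loci of both treatments (left), loci in all 4 Jun lists (middle) and BALB-only loci of both treatments (right). Columns are the other monomer and its treatment, and ATF3 after KLA is in both lists at 82.1%, 99.2% and 70.1% of the loci.

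Since list lengths differ between monomers, the 2 cores were compared with each other by an odds ratio. It asks how much higher the odds were that a monomer found in exactly 1 strain was found in C57BL/6, at the C57BL/6 core relative to the BALB/cJ core. It was 23.6 (14.9 to 37.3) for ATF3 and 16.8 (9.98 to 28.4) for JunD in Veh. After KLA it was 29.5 (15.5 to 56.1) for ATF3, 43.0 (24.7 to 74.6) for JunD, 64.3 (8.92 to 464) for Fos and 7.32 (4.42 to 12.1) for JunB. All 6 intervals lie far above 1. With equal list lengths the ratio was 31.5 for JunD in Veh and 67.3 for ATF3, 24.6 for Fos and 4.80 for JunB after KLA. With peak centres within 100 bp in place of overlap it was 15.8 for ATF3, 27.6 for JunD and 12.2 for Fos after KLA.

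For loci that were strain-only in 1 treatment, the ratios with the monomers of the same treatment were smaller. In Veh they were 6.15 (5.27 to 7.17) for ATF3 and 10.6 (8.81 to 12.9) for JunD. After KLA they were 8.22 (6.74 to 10.0) for ATF3, 12.2 (10.2 to 14.7) for JunD, 6.93 (5.15 to 9.33) for Fos and 3.55 (2.94 to 4.27) for JunB. At equal list lengths the KLA ratios of ATF3 and JunD rose to 13.3 and 20.2, while those of Fos and JunB fell to 4.37 and 1.37. The ratio of the monomers of the other treatment was lower in each case that could be compared: the Veh classes gave 2.71 for ATF3 and 2.25 for JunD after KLA, and the KLA classes gave 2.42 and 1.96 in Veh. The libraries of a strain and a treatment may share cells, which the labels do not state, so what the monomers share by strain and what they share by culture cannot be told apart.

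Complete differences between the strains were few. No AP-1 peak of any of the 6 other-monomer lists, nor of Jun, was found in BALB/cJ at 98 of the 1843 C57BL/6 core loci (5.32%, 4.38 to 6.44), or in C57BL/6 at 44 of the 364 BALB/cJ core loci (12.1%, 9.13 to 15.8). This pair of sets was defined after the lists had been read. By the methods of the study, reads within BALB/cJ deletions were left out, so a locus inside such a deletion could have no BALB/cJ peak. How many of the C57-only loci lie in such deletions was not examined. In their own strain these loci were bound by many monomers, as were the cores as a whole. At least 4 of the 6 other lists had a peak at 83 of the 98 and at 40 of the 44. All 6 had one at 46 (46.9%, 37.4 to 56.7) and 27 (61.4%, 46.6 to 74.3), beside 636 of the 1843 (34.5%) and 190 of the 364 (52.2%). Over the whole cores, the median number of own-strain lists with a peak was 5 for C57BL/6 and 6 for BALB/cJ. The opposite also occurred. All 6 other-monomer lists of BALB/cJ had a peak at 492 C57BL/6 core loci (26.7%), and all 6 of C57BL/6 at 34 BALB/cJ core loci (9.34%).

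Further lists of C57BL/6, not themselves used to choose these loci, also differed between the 2 sets. The 44 had been chosen for no AP-1 peak in C57BL/6 and the 98 for Jun peaks there. A difference in this direction therefore follows at least in part from the choice, most of all for AP-1 monomers, and is given as a description. At the 98 C57BL/6 loci PU.1, the factor that sets macrophage identity, had a peak at 55 in Veh (56.1%, 46.3 to 65.5) and at 64 after KLA, and PPARγ, a nuclear receptor of lipid metabolism, had one at 60 in Veh (61.2%). At the 44 BALB/cJ loci the same C57BL/6 lists had peaks at 7 (15.9%, 7.93 to 29.4), 3 and 6. CEBPα in Veh was at 27 of the 98 and 2 of the 44. FosL2, another AP-1 monomer, was at 21 in Veh and 44 after KLA of the 98, and at 0 of the 44 in both. Taking 3 loci as what a count of 0 allows, the share could be up to 6.82%, and the Wilson interval reaches 8.03%. In PPARgKO TGEMs, which are C57BL/6 macrophages of other mice, ATF3 had a peak at 82 of the 98 (83.7%) and 6 of the 44 (13.6%), JunD at 55 and 2, and Jun at 24 and 0. At least 1 of these 3 lists had a peak at 84 of the 98 (85.7%, 77.4 to 91.3) and at 6 of the 44 (13.6%, 6.40 to 26.7).

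The whole classes did not separate so cleanly in these lists. In PPARgKO TGEMs in Veh, Jun had a peak at 8.31% (7.73 to 8.94) of the C57-only and 9.20% (8.27 to 10.2) of the BALB-only loci of Veh, and at 36.2% of the shared loci. This Jun list is short, with 4290 peaks beside 15548 in wild-type C57BL/6, and the knockout of PPARγ and the strain background cannot be told apart in it. ATF3 gave 65.2%, 64.8% and 91.1%. Over the cores, PPARgKO Jun was at 13.3% of the C57BL/6 core, 7.14% of the BALB/cJ core and 47.8% of the loci in all 4 lists. The C57BL/6 list of PU.1 in Veh held 59.6% (57.4 to 61.8) of the C57BL/6 core, 45.3% (40.3 to 50.5) of the BALB/cJ core and 70.8% of the loci in all 4 lists, and CEBPα held 36.4%, 19.5% and 51.7%. PU.1, CEBPα and PPARγ lists of BALB/cJ were not analysed here.

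The loci of the named examples show these levels. Near Slamf9, C57BL/6 had Jun counts of 79 and 65 and PPARgKO 23, ATF3 had 173 in Veh and 321 after KLA, PPARγ had 56, and no BALB/cJ list had a peak. In an intron of Nat9, Jun had 82 and 58 and PPARgKO Jun 31, ATF3 189 and 216, JunD 152 and 564, and PPARγ 138. In an intron of Rab7b, a small GTPase of endosomes, Jun had 63 and 56, ATF3 136 and 241, and PPARγ 66. At Cacna1a, BALB/cJ had Jun counts of 83 and 74, ATF3 108 and 130, JunD 163 and 163, Fos 170 and JunB 75. At Col6a6, a collagen gene, Jun had 48 and 53, ATF3 73 and 138, and Fos 183. At Cacna1a and Col6a6 none of the C57BL/6 or PPARgKO lists had a peak.

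Among the genes of these 2 sets, 7 of the 98 C57BL/6 loci were nearest to a gene of the lists described below. These genes were Nlrp1b, Klra4, Sirpb1c, H2-K1, Csf1r, Klf4 and Bhlhe40. The share was 7.14%, and its Wilson interval included the 4.56% of all Jun loci. Of the 7 genes, the first 3 belong to immune gene families that vary between inbred strains. Loci nearest to such families were 3.06% of the 98, with an interval above the 0.362% of all Jun loci. That share rests on 3 loci of a set defined after the lists had been read. The Nlrp1b locus was at the promoter of this inflammasome sensor gene (chr11:71230710-71231007), with Jun counts of 36 in Veh and 32 after KLA and PU.1 counts of 952 and 249. The Sirpb1c locus (chr3:15849997-15850246) had Jun counts of 53 and 32. A locus near H2-K1, a gene of classical MHC class I, had 34 and 30 in C57BL/6 and no AP-1 peak in BALB/cJ. None of the 44 BALB/cJ loci was nearest to such a gene (Wilson interval up to 8.03%). The 98 loci lay on 20 chromosomes and contigs with at most 13 on 1 of them (chromosome 8), and the 44 on 16 chromosomes with at most 5 on 1 of them (chromosome 8 as well). Of all Jun loci, chromosome 8 held 945 of 18941 in Veh and 971 of 20667 after KLA. Intergenic loci were 64 of the 98 (65.3%, 55.5 to 74.0) and 12 of the 44 (27.3%, 16.3 to 41.8), and introns held 26 and 27. Over the whole cores, 41.0% of the C57BL/6 and 34.3% of the BALB/cJ loci were intergenic.

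The classes differed in how many of their loci lay within 1 kb of a TSS, and the order turned between the treatments. In Veh, 19.8% (18.9 to 20.7) of the C57-only, 9.38% (8.74 to 10.1) of the shared and 13.1% (12.0 to 14.3) of the BALB-only loci were at promoters. After KLA they were 14.1% (13.4 to 14.8), 13.3% (12.6 to 14.1) and 24.6% (23.1 to 26.1). C57-only minus BALB-only was 6.63 points (5.17 to 8.04) in Veh and -10.5 points (-12.1 to -8.82) after KLA, and at equal list lengths 5.61 and -14.5 points. The whole lists moved with it. Promoters held 14.7% of the C57BL/6 and 10.5% of the BALB/cJ Jun peaks in Veh and 13.8% and 16.6% after KLA.

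Under the same rule, JunD had the same turn, and Fos and JunB were compared after KLA alone. The difference of JunD was 7.83 points (6.41 to 9.28) in Veh and -13.6 (-14.8 to -12.5) after KLA. That of ATF3 was 1.93 (0.592 to 3.25) in Veh, where equal list lengths turned it to -1.21 (-2.55 to 0.143), and -13.1 (-14.3 to -12.0) after KLA. Fos after KLA gave -11.2 points, and JunB -0.863 (-2.13 to 0.487). These lists compare 2 strains in 1 condition each, so strain and experiment cannot be told apart in the share of promoters. The core loci, which were strain-only under both treatments, showed no such gap, with 15.3% (13.7 to 17.0) of the C57BL/6 core and 15.4% (12.0 to 19.5) of the BALB/cJ core at promoters.

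**Figure D5:**
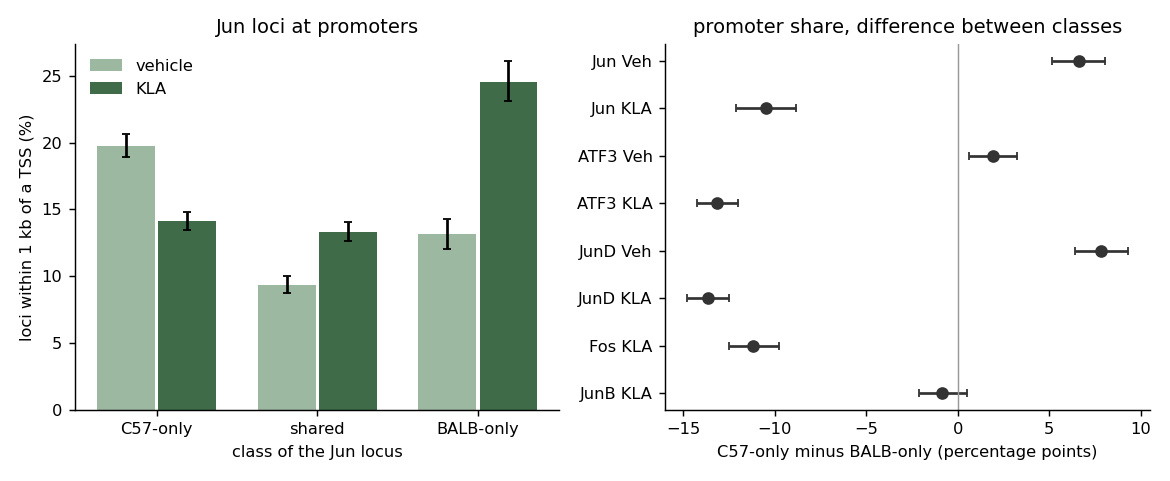
Left, share of Jun loci within 1 kb of a TSS (%) by class in Veh (light) and after KLA (dark), with 95% Wilson intervals. Right, C57-only minus BALB-only share in percentage points for each monomer and treatment, with 95% Newcombe intervals, at 6.63 for Jun in Veh and -10.5 for Jun after KLA.

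Among the 3 classes of each treatment, shared loci held a TRE most often. It stood in the central 200 bp of 42.6% of the shared, 22.9% of the C57-only and 27.7% of the BALB-only loci in Veh, and of 41.0%, 30.1% and 28.2% after KLA. All Jun loci together gave 30.3%, and windows of the same length 2 kb away gave 3.72%. C57-only minus BALB-only was -4.83 points (-6.61 to -3.08) in Veh and 1.94 points (0.110 to 3.74) after KLA. Loci in all 4 lists held the TRE at 49.4%, the C57BL/6 core at 30.0% and the BALB/cJ core at 35.7%, a difference of -5.75 points (-11.2 to -0.541) that turned to 3.15 points when 1 mismatch was allowed. The loci without any AP-1 peak in the other strain had a TRE at 49 of 97 in C57BL/6 (50.5%, 40.7 to 60.3) and at 14 of 44 in BALB/cJ (31.8%, 20.0 to 46.6). The sequence searched was that of the C57BL/6J reference for both sets, so a TRE that only the BALB/cJ allele holds was not counted.

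In the central 200 bp, the CRE and motifs of other factors also differed between the classes after KLA, and by less in Veh. The CRE stood at 1.17% of the C57-only and 2.90% of the BALB-only loci after KLA and at 2.12% and 2.09% in Veh. The PU.1 motif ACTTCCT was at 20.8% and 21.2% in Veh and at 19.3% and 17.1% after KLA. The CEBP motif TTGCNNAA was at 17.5% and 17.2% in Veh and at 16.4% and 13.3% after KLA, beside 16.8% of all Jun loci. After KLA the differences were 3.12 points (1.69 to 4.48) for CEBP, 2.25 points (0.698 to 3.76) for PU.1 and -1.73 points (-2.40 to -1.16) for the CRE, while in Veh all 3 intervals included 0. For the Runx motif TGTGGTT the difference was 1.12 points (0.123 to 2.04) after KLA and -0.599 points (-1.68 to 0.426) in Veh. Part of this pattern depended on the window. In the central 100 bp, the CEBP difference after KLA was 0.570 points (-0.604 to 1.68), which includes 0. That of PU.1 was 1.67 points (0.403 to 2.88) after KLA and -1.71 points (-3.12 to -0.352) in Veh. The CRE kept its difference after KLA, at -1.23 points (-1.81 to -0.752). No motif searched contains another, both strands were read, and matches are letters in a window, not sites shown to be bound.

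Strain-only loci were found on all autosomes at similar shares. Chromosome X stood apart after KLA and at equal list lengths, but not in Veh with the lists as deposited. On the autosomes, the C57-only share in Veh ran from 38.3% on chromosome 6 to 46.1% on chromosome 8, and after KLA from 41.8% on chromosome 10 to 47.5% on chromosome 12. The BALB-only share ran from 15.2% on chromosome 17 to 23.5% on chromosome 18 in Veh and from 13.7% on chromosome 2 to 18.7% on chromosome 9 after KLA. On chromosome X, 53.0% (46.1 to 59.8) of 200 loci were C57-only, 27.0% shared and 20.0% BALB-only after KLA. In Veh the shares were 39.5%, 38.2% and 22.3% of 233, inside the ranges of the autosomes. At equal list lengths 84 of 173 chromosome X loci in Veh (48.6%, 41.2 to 56.0) and 57 of 126 after KLA (45.2%, 36.8 to 53.9) were BALB-only, while no autosome was above 33.6% and 32.8%. That cut removes weak C57BL/6 peaks only. On chromosome X it took C57-only loci from 92 to 32 and shared loci from 89 to 57 in Veh. After KLA it took them from 106 to 32 and from 54 to 37. How much of the BALB-only share on chromosome X comes from the cut was not tested. After KLA the C57-only share of chromosome X was 25.4% at that length, so its excess as deposited was not kept. Over all distances, neighbours were slightly alike. The nearest other locus over 2 kb away was itself C57-only for 43.9% (42.8 to 45.0) of the C57-only loci in Veh, beside 42.2% of all loci, and for 47.1% beside 45.3% after KLA. For BALB-only loci the values were 20.0% (18.7 to 21.4) beside 18% in Veh and 18.4% (17.1 to 19.8) beside 15.5% after KLA. At the shortest distances, between 2000 and 10000 bp, the share was near the background or below it for 3 of the 4 classes, at 40.9% and 18.1% for C57-only and BALB-only loci in Veh and 15.4% for BALB-only loci after KLA, and 47.0% for C57-only loci after KLA. The highest share of BALB-only neighbours after KLA among 5 ranges of distance was 27.2% (142 of 523, 23.5 to 31.1), between 50000 and 200000 bp.

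In some stretches more than 50% of the loci were of 1 class. Of 1114 windows of 1 Mb with at least 5 loci under each treatment, this held for C57-only loci in 266 in Veh, 361 after KLA and 106 under both. For BALB-only loci it held in 19, 11 and 2. Since 42.2% and 45.3% of all loci were C57-only, a window passes 50% with a small excess. Whether 106 is more than unclustered loci would give was not tested. The window with the most one-sided C57BL/6 binding among those named by rule was chr8:35000001-36000000, with the genes Ppp1r3b, Eri1, Mfhas1 and Cldn23. There 22 of 26 loci in Veh were C57-only and 0 were BALB-only, and after KLA 15 of 21 and 2. ATF3 had 29 peaks in C57BL/6 and 10 in BALB/cJ there in Veh and 47 and 23 after KLA, while JunD had 24 and 23 in Veh and 38 and 26 after KLA. The other 3 windows were chr8:70000001-71000000, which holds Jund (22 of 39 and 20 of 34 C57-only), chr11:117000001-118000000, which holds Socs3, a suppressor of cytokine signalling (14 of 27 and 21 of 39), and chr18:39000001-40000000 with Nr3c1, the glucocorticoid receptor gene (16 of 31 and 29 of 55). The chromosome 11 window, at 51.9% and 53.8%, and the chromosome 18 window, at 51.6% and 52.7%, passed 50% narrowly.

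The 2 BALB-only windows had few loci. In chr9:47000001-48000000, with Cadm1, which encodes a cell adhesion molecule, 4 of 7 loci in Veh and 4 of 5 after KLA were BALB-only and none was C57-only. The other monomers leaned the same way. ATF3 had 2 peaks in C57BL/6 and 11 in BALB/cJ in Veh and 5 and 15 after KLA, JunD 1 and 15 in Veh and 3 and 14 after KLA, Fos 3 and 18, and JunB 2 and 12. In chr18:24000001-25000000, 5 of 8 and 5 of 9 loci were BALB-only.

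Genes of 13 lists that fit macrophages and TLR4 signalling were examined by the nearest TSS. Their strain-only shares are given beside the background of 42.2% and 18% in Veh and 45.3% and 15.5% after KLA, and most list intervals include it. The 15 AP-1 genes had 72 loci in Veh, of which 33 were C57-only (45.8%, 34.8 to 57.3) and 8 BALB-only, and 91 after KLA, of which 46 were C57-only and 16 BALB-only. Chemokine genes were mostly shared in Veh, with 28 of 44 loci (63.6%, 48.9 to 76.2) shared and 10 C57-only (22.7%, 12.8 to 37.0), while after KLA 40 of 85 were C57-only (47.1%, 36.8 to 57.6). Surface receptors had 33 of 59 loci shared in Veh, and 4 BALB-only (6.78%, 2.67 to 16.2). Genes of the NF-κB subunits and inhibitors had 54 loci in Veh (19 C57-only, 26 shared, 9 BALB-only) and 115 after KLA (54, 50 and 11). Antigen presentation genes had 10 C57-only, 5 shared and 7 BALB-only loci in Veh and 10, 7 and 7 after KLA, and genes of strain-variable immune families had 27, 28 and 13 in Veh and 40, 29 and 11 after KLA.

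Inflammatory cytokine genes had 16, 18 and 13 loci in Veh and 43, 44 and 13 after KLA, and genes of the TLR4 pathway 15, 13 and 5 and then 19, 13 and 7. For macrophage transcription factors, the counts were 70, 74 and 25 in Veh and 70, 84 and 18 after KLA. PPARγ and lipid handling genes had 33, 44 and 13 and then 34, 38 and 17, genes of arginine, nitric oxide and prostaglandin metabolism 14, 14 and 3 and then 18, 16 and 2, matrix proteases 17, 26 and 7 and then 18, 25 and 8, and dual-specificity phosphatases 25, 34 and 6 and then 33, 30 and 17. In each case the order is C57-only, shared and BALB-only.

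In all, 85 of the 1843 C57BL/6 core loci (4.61%, 3.75 to 5.67) and 8 of the 364 BALB/cJ core loci (2.20%, 1.12 to 4.28) were nearest to a gene of any list, beside 1272 of all 27869 Jun loci (4.56%). The C57BL/6 core is the larger set, so counts are read against its size. Genes of AP-1 itself held 11 C57BL/6 core loci (0.597%, 0.334 to 1.07) and 0 BALB/cJ core loci (up to 1.04%), beside 0.413% of all Jun loci. Of the 11, 4 lay upstream of Atf3, with Jun counts between 26 and 52 in Veh and between 21 and 38 after KLA. Macrophage transcription factors held 16 and 1 (0.868% and 0.275%, beside 0.847% of all), the TLR4 pathway 6 and 0 (0.326% and 0%, beside 0.176%), and surface receptors 8 and 0 (0.434% and 0%, beside 0.309%), with intervals of the C57BL/6 and BALB/cJ shares that overlapped in each list. Beside Cd14, the coreceptor of TLR4, a pair of C57BL/6 core loci had counts of 20 and 21 in Veh and 66 and 54 after KLA, and BALB/cJ had peaks for all 6 other lists at each. At the promoter of Ptgs2, which encodes cyclooxygenase 2, the counts were 13 and 33, at that of Nos2, the inducible nitric oxide synthase, 13 and 36, and at that of Clec4e, a C-type lectin receptor, 25 and 45. Abca1, a cholesterol efflux transporter gene, had 4 C57BL/6 core loci, the strongest with counts of 44 and 66.

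Antigen presentation genes held 3 BALB/cJ core loci (0.824%, 0.281 to 2.39) and 2 C57BL/6 core loci (0.109%, 0.0298 to 0.395), beside 0.115% of all Jun loci. H2-DMa and H2-DMb1, which encode the chaperone that loads MHC class II, had BALB/cJ counts of 25 in Veh and 39 after KLA and of 23 and 26. H2-K1 had a BALB/cJ core locus with counts of 18 and 28 at chr17:33991828-33992073, beside its C57BL/6 core locus at chr17:33981094-33981358. The remaining BALB/cJ core loci at list genes were at the promoter of Nfkbid, an IκB family member (34 and 54), and near Spi1, the gene of PU.1 (19 and 42), Il1rn, the interleukin 1 receptor antagonist (19 and 21), Lipa, the lysosomal acid lipase (24 and 34), and Dusp1, a MAP kinase phosphatase (26 and 24), which also had 2 C57BL/6 core loci.

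Jun shared fewer loci between the strains than the other monomers under the same rule at equal list lengths within each comparison. The shared share of 44.8% for Jun in Veh stood beside 53.8% for ATF3 and 54.8% for JunD, lower by 8.92 (7.92 to 9.92) and 9.96 points (8.95 to 10.96). After KLA, 42.0% for Jun stood beside 61.8% for ATF3, 57.6% for JunD, 63.7% for Fos and 50.6% for JunB. The differences were 19.8, 15.7, 21.7 and 8.63 points. With the strongest 10957 peaks of every list, Jun was at 44.8% and 42.7% and the other monomers between 53.4% and 67.3%. The highest count of the Jun lists, 127 to 149, was below that of every other list in this comparison (202 or more), and whether its shared share is lower for this reason was not tested.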

How the data were processed

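ChIP-seq peak lists of male TGEMs were analysed, 1 per antibody, strain and treatment. The authors aligned reads with Bowtie2 (BALB/cJ reads to a BALB/cJ genome, with positions shifted to mm10) and used HOMER to find peaks relative to the input. Reads within BALB/cJ deletions were left out by them. Replicates were combined by them with the idr program 2.0.3, which removed peaks at an IDR of 0.05 or more. The deposited counts are whole-number tag counts per peak, not scaled to library size, and how they were combined over replicates is not given in the sources used here. The deposited score is the scaled IDR. Groups came from the sample labels.

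Peaks were joined by 1 bp overlap and assigned to the nearest protein-coding TSS (GENCODE M21, GRCm38.p6), with promoters within 1 kb, in Python 3.11.15 with pandas 2.3.3, scipy 1.17.1 and pysam 0.24.0. With 1 list per condition no test between replicates could be run. Scripts were tested on simulated data. Genes were named by rule: the 8 core loci per strain with the highest lower rank of both treatments, the 3 highest counts per strain-only class, the 3 shared loci per treatment with the highest mean rank, the windows of 1 Mb with the most strain-only loci (up to 4 per strain), and core loci at genes of 13 lists. Loci with no AP-1 peak in the other strain were named after their values were seen. The members and lists were chosen with earlier results of these data known. Alternatives were equal list lengths, other overlap rules, stricter count and score limits, other windows and motif settings. Equal lengths for promoters, near misses within 1 kb and 1 length for all monomers were added after seeing the data.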

Additional observations from a re-analysis of the deposited data

Results flagged for a closer look

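The promoter share of strain-only loci turned between the treatments, with C57-only minus BALB-only at 6.63 points in Veh and -10.5 points after KLA. The TRE share did likewise, at -4.83 points in Veh and 1.94 points after KLA. At single loci, 484 were C57-only in Veh and BALB-only after KLA, and 665 were BALB-only in Veh and C57-only after KLA. The difference between the treatments was not tested in any of these, since each condition had 1 list.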

How the results depend on the processing

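No paired analysis was possible because each condition had 1 list and no result came from a test, and no replicate could be left out because the authors had combined the replicates. Of 104 values under another setting, 62 stayed within their limits, 41 moved and 1 reversed. Keeping fewer peaks changed the class counts by construction, and shortening the C57BL/6 list raised the BALB-only loci to 4170 in Veh and 4626 after KLA. In Veh, C57-only loci numbered 4170 at equal list lengths, 3405 with the strongest 50% of each list and 88 when the strongest 10% was set against the whole other list. Veh shared loci numbered 4369 with the strongest 50%, and BALB-only loci 1109 with the strongest 50%, 1726 at a scaled IDR score of 830 or more and 25 in the strongest 10%. After KLA, C57-only loci numbered 4617, 4092, 5699 (IDR score) and 242, shared loci 4639, and BALB-only loci 1017, 1446 (IDR score) and 21. The odds ratios at equal lengths and with centres within 100 bp were 7.51 and 5.09 for ATF3 and 13.1 and 8.25 for JunD in Veh, and after KLA 13.3 and 5.46 for ATF3, 20.2 and 8.67 for JunD, 4.37 and 3.76 for Fos and 1.37 and 2.84 for JunB. At the cores, equal lengths gave 67.3 for ATF3 after KLA, 31.5 for JunD in Veh, 24.6 for Fos and 4.80 for JunB, and centres within 100 bp 15.8 for ATF3 after KLA, 27.6 for JunD after KLA and 12.2 for Fos. Neighbours of C57-only loci were C57-only 3.35 points (Veh) and 2.98 points (KLA) above the overall share at equal lengths. C57-only windows numbered 70 at 2 Mb, and BALB-only windows 0 at 500 kb and 1 at 2 Mb. With 1 mismatch the TRE difference was 5.22 points after KLA, and that of the cores reversed to 3.15 points. Within 5 kb of list genes there were 186 C57-only and 71 BALB-only loci in Veh and 262 C57-only loci after KLA. Other causes were not tested. Depth limits the weak peaks, which a list may miss in either strain.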
